A study of Mus musculus with 16 samples.

Results

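The genes described here are the 10 that encode the calcium release channels of the endoplasmic reticulum (ER) and the proteins that set their drive and sense their store: the IP3 receptors *Itpr1*, *Itpr2* and *Itpr3*, the ryanodine receptors *Ryr1*, *Ryr2* and *Ryr3*, the IP3 3-kinases *Itpka* and *Itpkb*, and the store sensors *Stim1* and *Stim2*. They were chosen by name, out of 53679 gene symbols in the table, and all 10 were found, with 76 annotated isoforms. RNA was sequenced from 16 mouse primary cortical neuron cultures of wt genotype (E15 embryos, seeded in 6-well plates), 4 in each of 4 groups. CONTROL-VEH cultures (1 to 4) received vehicle and sham, CONTROL-TIA cultures (5 to 8) 10 μM tianeptine (TIA, an antidepressant) and sham, OGD-VEH cultures (9 to 12) vehicle and 3 h of oxygen-glucose deprivation (OGD, a culture model of ischemia), and OGD-TIA cultures (13 to 16) both TIA and OGD. Pretreatment was on DIV 8, 24 h before OGD or sham, and RNA was taken at 6 h of reoxygenation. The study's methods call the cultures of a group biological replicates. The labels call the vehicle cultures untreated and do not say whether the 4 cultures of a group came from separate neuron preparations, so p-values measure the spread between these cultures.

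In neurons, Gq-coupled receptors activate phospholipase C, which makes IP3, and IP3 opens its receptors in the ER membrane so that calcium leaves the store. Ryanodine receptors open on calcium itself and amplify such signals, IP3 3-kinases turn IP3 into IP4 and so end its action, and the STIM proteins sense the calcium level inside the ER and open ORAI channels in the plasma membrane when the store empties. Loss of ER calcium control is a known part of ischemic injury.

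Expression was given as FPKM, which scales the fragments of an isoform by its length and by the library size, and which the authors estimated for each isoform. Read counts were not analysed here. The depth was estimated from the FPKM of 1 read at 19.8 to 25.7 M reads per culture, so that 1 read on 1 kilobase was worth 0.0389 to 0.0505 FPKM. A gene is given below on either of 2 scales. The summed FPKM adds its isoforms, as in the main test. The length-weighted FPKM weights each isoform by its length over that of the gene's longest isoform, so that a short isoform with few reads counts for little, and only this scale is used to compare levels between genes. Log2 fold changes are on the scale log2(FPKM + 0.1), which understates changes of low genes. padj is the p of limma after Benjamini-Hochberg adjustment over all genes tested, and genes with padj ≤ 0.05 whose level changed by 1 or more on the log2 scale, up or down, are called differentially expressed genes (DEGs).

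All 16 neuronal marker genes were present, and 11 of 13 microglial and 8 of 9 endothelial markers had a mean under 0.5 FPKM, with none at 0 in every culture. The summed FPKM of the neuronal markers was 3742 to 4468 in the 8 control cultures, 3443, 2514, 2419 and 1634 in OGD-VEH 9 to 12, and 3718, 3493, 3741 and 2262 in OGD-TIA 13 to 16. The 12 astrocytic markers summed to 1195 to 2896 in OGD-VEH against 900 to 1829 in CONTROL-VEH, and the 10 markers of the oligodendrocyte lineage to 255 to 707 against 186 to 223. OGD-VEH 9 therefore lay nearest to the controls within its group, and OGD-TIA 16 lowest in neuronal markers within its own. In bulk RNA, fewer cells of a type and less RNA per cell cannot be told apart, and the part of cell composition in the results below was not tested.

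In the 8 control cultures, *Stim1*, *Itpr1* and *Stim2* had the highest means of the 10 genes per length, at 12.7 ± 0.945, 11.7 ± 1.18 and 10.6 ± 0.603 length-weighted FPKM (mean ± SD, n = 8), and the range of *Itpr1* overlapped those of *Stim1* and *Stim2*. *Itpka* (9.16 ± 1.37) followed, and its range overlapped those of all 3 and that of *Ryr3* (7.57 ± 0.665), and then came *Ryr2* (4.29 ± 0.301) and *Itpkb* (1.89 ± 0.126), each apart from its neighbours. *Itpr2* (0.989 ± 0.139) and *Ryr1* (0.873 ± 0.207) overlapped, and *Itpr3* was lowest at 0.288 ± 0.067. *Itpr1* was thus the main IP3 receptor of these cultures and *Ryr3* with *Ryr2* the main ryanodine receptors, while the skeletal muscle channel *Ryr1* was near 1 FPKM. *Itpr3* was under the minimum mean of 0.5 FPKM and entered no main test. In the fit without that minimum its log2 fold change was 0.15 ± 0.29 (SE) in OGD-VEH against CONTROL-VEH, at about 62 estimated reads per culture.

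**Figure D1:**
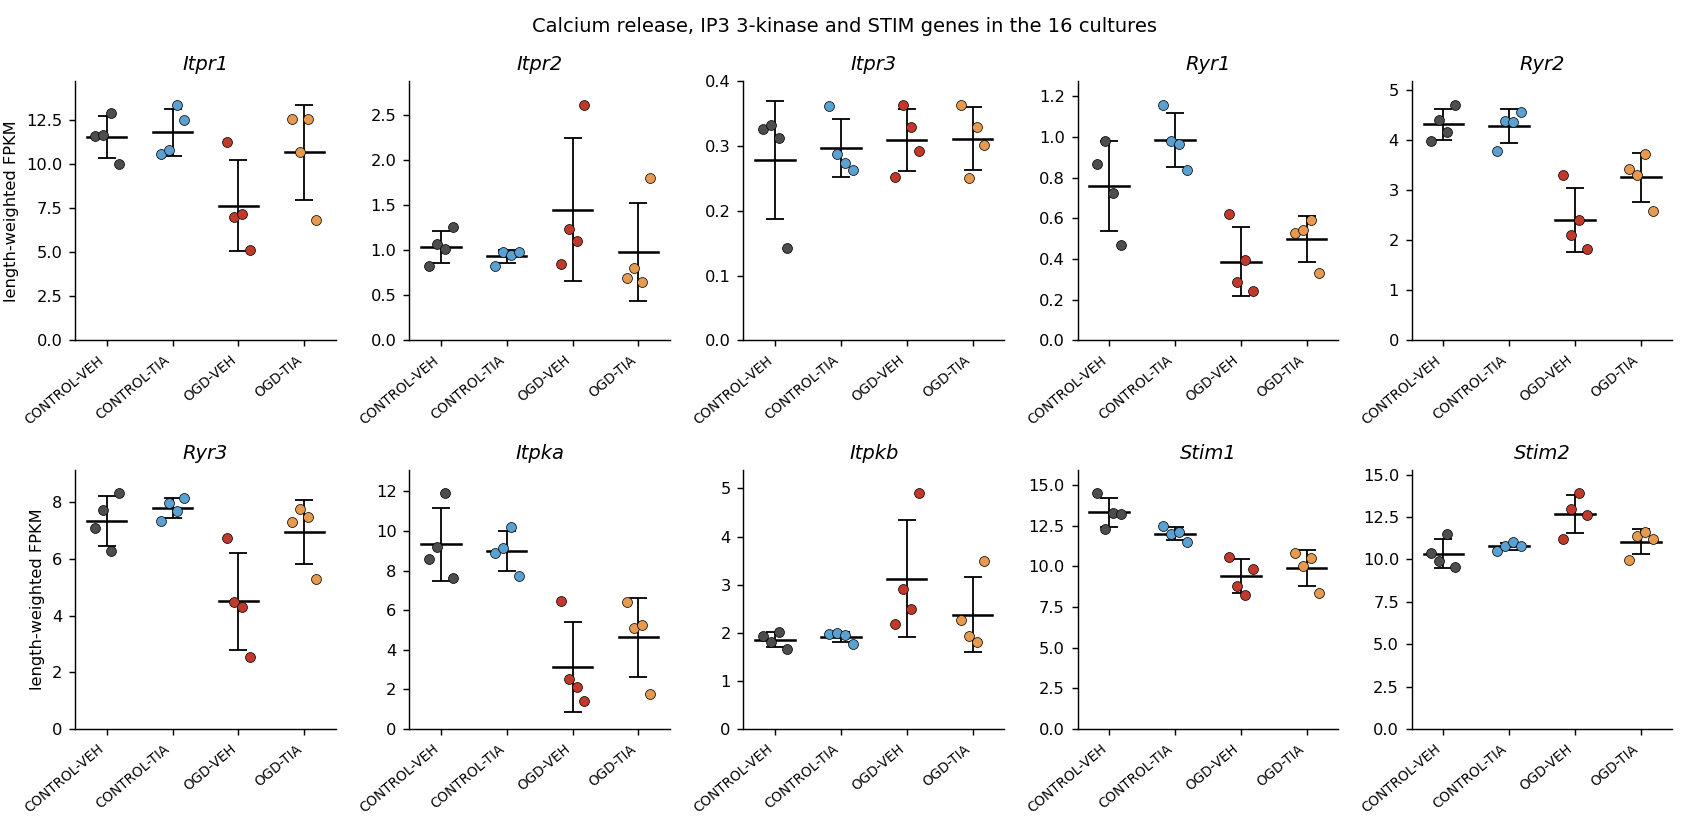
Length-weighted FPKM (linear axis from 0, a separate scale per panel) of each of the 10 genes in each culture, ordered by culture number within a group, with the mean (bar) and SD (whiskers) of 4 cultures. *Itpka*, *Ryr2* and *Stim1* lay lower in all 8 OGD cultures than in all 8 control cultures, and *Itpkb* lay above the controls in the 4 OGD-VEH cultures.

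Of the IP3 3-kinases, which remove IP3, *Itpka* had a lower mean after OGD in both arms and passed the test only with vehicle. *Itpkb* had a higher mean after OGD in both arms and passed the test in neither. *Itpka*, the neuronal enzyme that also binds actin in dendritic spines, lies on chromosome 2 (119742337-119751263, plus strand, GRCm38) and has 1 annotated isoform, so its value does not depend on how isoforms are combined. *Itpkb*, the more widely expressed enzyme, lies on chromosome 1 (180330485-180424802, plus strand), with 99.7% of its FPKM on 1 isoform of 6235 bases. Because the fitted changes of this pair have opposite signs, the 250 bases before each start site are shown, from RefSeq on GRCm38.p6, for chr2:119742087-119742336 and chr1:180330226-180330475 (both plus strand), 5′ to 3′, with ACGTG, the core letters bound by hypoxia-inducible factors, in capitals on either strand.
Itpka: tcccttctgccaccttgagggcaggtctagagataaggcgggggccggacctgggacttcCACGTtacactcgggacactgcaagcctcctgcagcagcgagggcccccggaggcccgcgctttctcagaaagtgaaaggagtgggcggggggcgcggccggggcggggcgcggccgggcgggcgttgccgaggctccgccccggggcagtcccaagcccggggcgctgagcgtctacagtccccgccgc
Itpkb: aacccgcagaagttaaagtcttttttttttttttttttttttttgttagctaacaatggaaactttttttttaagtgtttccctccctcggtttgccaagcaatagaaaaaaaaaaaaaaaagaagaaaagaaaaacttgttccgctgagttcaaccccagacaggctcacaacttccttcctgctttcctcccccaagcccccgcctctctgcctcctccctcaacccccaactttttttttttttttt

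The *Itpka* window holds 72.8% G and C, 1 ACGTG and 4 copies of the GC box GGGCGG, and the *Itpkb* window 38.4% G and C and none of the letters searched. Of 32851 promoter windows of this length, 16.6% hold ACGTG and 32.7% GGGCGG on either strand, and the median G and C content was 52.4%. Windows were found for 8 of the 10 genes, and none of the 8 held the CREB site TGACGTCA (1.55% of all windows) or the AP-1 sites TGACTCA or TGAGTCA (4.46%). Besides *Itpka*, ACGTG lay in the windows of *Ryr2* and *Itpr3*, and GGGCGG in those of *Itpr2*, *Itpr3*, *Ryr1*, *Stim1* and *Stim2*. A match is a description of the letters only.

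*Itpka* was 8.59, 9.18, 11.9 and 7.62 FPKM in CONTROL-VEH 1 to 4 and 6.44, 2.54, 2.1 and 1.41 in OGD-VEH 9 to 12. The 4 OGD-VEH cultures all lay below the 4 controls, OGD-VEH 9 nearest to them and OGD-VEH 12 farthest. The log2 fold change was -1.76 ± 0.41 (SE, limma padj = 0.0437), or 0.296-fold. With TIA, *Itpka* was 8.88, 9.16, 10.2 and 7.74 FPKM in CONTROL-TIA 5 to 8 and 6.42, 5.1, 5.23 and 1.79 in OGD-TIA 13 to 16. These groups did not overlap either, and OGD-TIA 16 was the lowest of its group, at the level of OGD-VEH 10 to 12. The log2 fold change was -1.08 ± 0.36 (limma padj = 0.184).

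*Itpkb* was 1.94, 1.81, 2.02 and 1.67 FPKM in CONTROL-VEH and 2.19, 2.93, 2.5 and 4.9 in OGD-VEH. All 4 OGD-VEH cultures lay above the controls, most of all OGD-VEH 12, and the log2 fold change was 0.65 ± 0.26 (limma padj = 0.111). In CONTROL-TIA it was 1.97, 2, 1.95 and 1.77 FPKM and in OGD-TIA 2.27, 1.96, 1.8 and 3.5, groups that overlapped, with OGD-TIA 16 highest (0.25 ± 0.21, padj = 0.522). *Itpka* made up 81.4 to 85.4% of the summed level of the 2 kinases in the 8 control cultures. In OGD-VEH its share was 74.6, 46.4, 45.6 and 22.3% in cultures 9 to 12, a mean of 47.2 ± 21.4% (SD, n = 4), and in OGD-TIA the mean was 63.6 ± 19.9%. OGD-VEH 12 and OGD-TIA 16, where *Itpkb* exceeded *Itpka* most, were also the cultures with the lowest neuronal (1634 and 2262) and the highest astrocytic marker sums (2896 and 2203) of their groups.

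Among the IP3 receptors, *Itpr1*, the main neuronal form (chromosome 6, 108213096-108551109, plus strand), was 57.3, 41.7, 53.3 and 40.1 summed FPKM in CONTROL-VEH and 37.4, 13.4, 11.4 and 13.1 in OGD-VEH. The groups did not overlap, and OGD-VEH 9 lay close to the lowest control. The log2 fold change was -1.51 ± 0.36 (SE, limma padj = 0.0444), or 0.35-fold, which made *Itpr1* a DEG. With TIA the values were 27.5, 28.8, 56.3 and 63.1 in controls and 60, 22.8, 41.6 and 15.8 after OGD, an overlap of nearly the whole range (-0.41 ± 0.46, padj = 0.635).

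A large part of the summed *Itpr1* level came from short isoforms. Itpr1-207, an isoform of 454 bases annotated as protein-coding, held 35.2% of it. Its FPKM was 31.0, 22.1, 30.7 and 20.9 in CONTROL-VEH, 0, 1.75, 18.7 and 28.1 in CONTROL-TIA, 17.7, 3.52, 0.017 and 0 in OGD-VEH and 30.7, 0.034, 0.077 and 0 in OGD-TIA. The isoform was thus at or near 0 in some cultures and above 17 in others of 3 of the groups. The full-length Itpr1-201 of 9870 bases was 3.70, 3.55, 3.63 and 2.98 in CONTROL-VEH and 4.27, 2.42, 2.38 and 1.55 in OGD-VEH.

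On the length-weighted scale, *Itpr1* was 11.6, 11.7, 12.9 and 10 in CONTROL-VEH and 11.3, 7.02, 7.21 and 5.13 in OGD-VEH. OGD-VEH 9 was then within the control range and the other 3 cultures below it, and the log2 fold change shrank to -0.64 ± 0.21 (limma padj = 0.0572), so *Itpr1* was no longer a DEG. Isoforms of 1000 bases or more alone, an alternative added after the data were seen, gave -0.49 (padj = 0.0864), and protein-coding isoforms alone, which include Itpr1-207, gave -1.68 (padj = 0.0377). *Itpr2*, the receptor known from glia and other non-neuronal cells, ranged from 0.872 to 1.42 summed FPKM in CONTROL-VEH and from 0.938 to 2.7 in OGD-VEH (0.27 ± 0.34, padj = 0.596). Its highest values were in OGD-VEH 12 (2.7) and OGD-TIA 16 (2.1), and a processed pseudogene, *Gm15720*, lies within it on the same strand at a mean of 11.9 FPKM, so reads may be split between them. Per length, *Itpr1* was 87.7 to 91.6% of the 3 IP3 receptors in the controls, and 63.8% in OGD-VEH 12 and 76.5% in OGD-TIA 16.

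The ryanodine receptors, which release calcium in response to calcium, had lower means in OGD-VEH than in CONTROL-VEH for all 3 genes, and *Ryr2* had the smallest error. *Ryr2*, the cardiac and brain form (chromosome 13, 11553102-12106945, minus strand), was 9.37, 8.54, 9.63 and 10.2 summed FPKM in CONTROL-VEH and 7.93, 3.35, 4.61 and 4.74 in OGD-VEH. The groups did not overlap, and the log2 fold change of -0.92 ± 0.24 (limma padj = 0.0505) missed both thresholds. On the length-weighted scale it was 3.98, 4.39, 4.15 and 4.7 against 3.3, 2.11, 2.39 and 1.82 (-0.85 ± 0.18, padj = 0.0277).

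In OGD-TIA, *Ryr2* was 3.41, 3.3, 3.71 and 2.57 length-weighted FPKM, below all 4 CONTROL-TIA cultures (3.78, 4.38, 4.36 and 4.55), at -0.39 ± 0.13 and a padj of 0.108. *Ryr3* (chromosome 2, 112631355-113217096, minus strand) was 7.07, 7.73, 6.26 and 8.31 length-weighted FPKM in CONTROL-VEH and 6.72, 4.47, 4.3 and 2.53 in OGD-VEH. OGD-VEH 9 lay within the controls and the other 3 below them (-0.76 ± 0.26, padj = 0.0586). In OGD-TIA it was 7.31, 7.76, 7.46 and 5.28 against 7.34, 7.97, 7.68 and 8.16 in CONTROL-TIA, so that only OGD-TIA 16 was clearly low (-0.18 ± 0.12, padj = 0.372). Its summed FPKM rested for 62% on Ryr3-205, a retained-intron isoform of 612 bases, and on that scale the same comparisons gave -0.75 ± 0.41 (padj = 0.22) and -0.01 ± 0.20 (padj = 0.977). The end of *Ryr3* overlaps *Aven* on the opposite strand, which the stranded library can separate only if the counting used strand, and this is not given in the sources used here.

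*Ryr1* was 1.87, 2.54, 1.13 and 0.716 summed FPKM in CONTROL-VEH and 1.24, 0.4, 0.662 and 0.256 in OGD-VEH, with an overlap (-1.21 ± 0.51, limma padj = 0.131). It rested on 215 estimated reads per culture at the median, and 40.9% of its FPKM was a retained-intron isoform. In OGD-TIA it was 1.05, 0.637, 0.712 and 1.12 against 1.69, 1.08, 1.63 and 1.43 in CONTROL-TIA (-0.69 ± 0.24, padj = 0.197). With isoforms weighted by length, the *Ryr1* log2 fold changes of the 2 arms were close. They were -0.84 ± 0.36 (limma padj = 0.107) with vehicle and -0.87 ± 0.23 (padj = 0.0759) with TIA. *Ryr3* was 56.2 to 61.6% of the 3 receptors per length in the control cultures and 55.1 to 65.2% in OGD-VEH, and its 63.4 to 66.9% in OGD-TIA lay above all 8 controls. The *Ryr1* share was 6.18 to 9.43% in CONTROL-TIA and 4.04 to 5.03% in OGD-TIA, with no overlap, and 3.48 to 7.47% in CONTROL-VEH and 4.19 to 5.84% in OGD-VEH, with overlap. On the summed scale the *Ryr3* share overlapped, at 57 to 71.5% in CONTROL-VEH and 67.3 to 76% in OGD-TIA. The *Ryr1* share on that scale was 2.96 to 5.38% in CONTROL-TIA and 1.92 to 5.2% in OGD-TIA, also with overlap. How often such shares lie apart over all genes was not computed.

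Of the store sensors, *Stim1*, which opens ORAI channels strongly when the store empties (chromosome 7, 102267806-102437319, plus strand), was 14.5, 12.3, 13.3 and 13.2 length-weighted FPKM in CONTROL-VEH and 10.6, 8.81, 8.27 and 9.86 in OGD-VEH. All OGD-VEH cultures lay below the controls, at -0.50 ± 0.10 (limma padj = 0.0271), or 0.705-fold. With TIA it was 12.5, 12, 12.1 and 11.5 in controls and 10.8, 10, 10.5 and 8.36 after OGD, again with no overlap (-0.28 ± 0.09, padj = 0.1). As summed FPKM the same fall was -0.61 ± 0.23 (padj = 0.104) in OGD-VEH and -0.21 ± 0.18 (padj = 0.53) in OGD-TIA. With protein-coding isoforms alone it was -0.42 ± 0.22 (padj = 0.177) in OGD-VEH, and with isoforms of 1000 bases or more -0.52 ± 0.11 (padj = 0.0232). Stim1-201, a coding isoform of 4085 bases, held 37.6% of the summed level.

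*Stim2*, which responds to small losses of ER calcium, was 25.2, 23.3, 39.6 and 21.2 summed FPKM in CONTROL-VEH and 35.2, 45.7, 52 and 44.5 in OGD-VEH (0.73 ± 0.21, limma padj = 0.0601). The groups overlapped through CONTROL-VEH 3 and OGD-VEH 9. Its largest isoform by FPKM, Stim2-202, is a processed transcript of 553 bases that held 41% of the level and was listed at 0.002 in CONTROL-VEH 4, against 10.0, 10.3 and 19.3 in the other CONTROL-VEH cultures. On the length-weighted scale *Stim2* was 10.4, 9.91, 11.5 and 9.57 against 11.2, 13, 13.9 and 12.6, a log2 fold change of 0.29 ± 0.10 (padj = 0.0619), and 0.14 with protein-coding isoforms only (padj = 0.43). In the TIA arm both scales gave 0.03 (padj = 0.926 summed and 0.774 length-weighted). *Stim1* was 51.6 to 58.3% of the 2 STIM genes per length in the controls and 37.3 to 48.7% in OGD-VEH, with 42.8 to 51.9% in OGD-TIA.

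**Figure D2:**
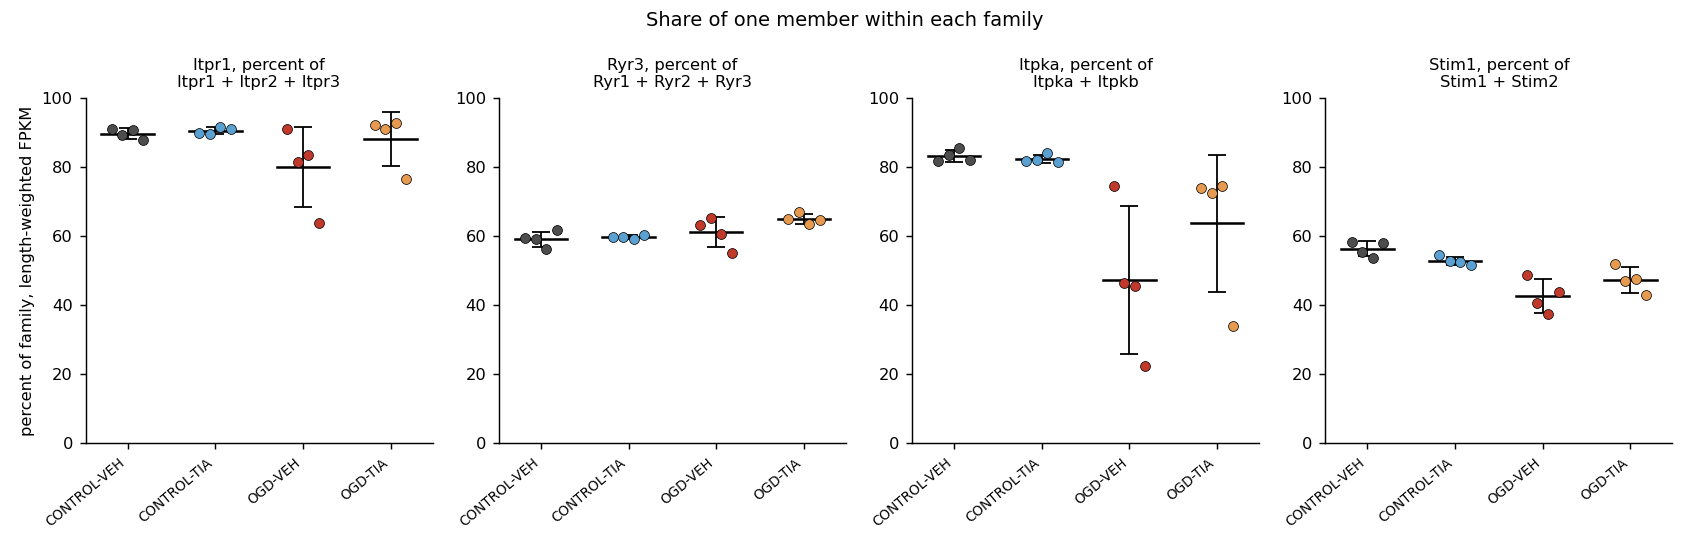
Percent of its family's length-weighted FPKM held by *Itpr1*, *Ryr3*, *Itpka* and *Stim1* in each culture (axis 0 to 100), with the mean (bar) and SD (whiskers) of 4 cultures. The *Itpka* share was 81.4 to 85.4% in the controls and 22.3 to 74.6% in OGD-VEH, and the *Ryr3* share was 63.4 to 66.9% in OGD-TIA, above the controls (56.2 to 61.6%). As summed FPKM (not shown), the *Ryr3* share in OGD-TIA overlapped the controls.

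Taking the 9 tested genes as a group, 2 were DEGs in OGD-VEH against CONTROL-VEH (*Itpka* and *Itpr1*, both lower), where 4.09% of 16346 genes were DEGs and 1.68% were lower DEGs. Their median log2 fold change was -0.75, that of all genes 0.10, and that of the 16 neuronal markers -0.81, with 16 of 16 below 0. The part of the neuronal share of the RNA in the members' values was not tested. Groups did not overlap for *Itpr1*, *Ryr2* and *Itpka* below the controls and for *Itpkb* above them, where 9.95% of all genes lay below and 12.7% above. Both calls were lost when any 1 of 7 cultures was left out (padj 0.0725 to 0.121), with log2 fold changes of -1.85 to -1.47 for *Itpka* and -1.60 to -1.33 for *Itpr1*, and without OGD-VEH 9 the DEGs were 4, *Itpka*, *Itpr1*, *Ryr1* and *Ryr2*. Without that culture the log2 fold changes of *Itpka* and *Itpr1* were -2.18 (limma padj = 0.00246) and -1.91 (padj = 0.00187). The share of all genes called without OGD-VEH 9 is not given here. With isoforms weighted by length, *Itpka*, *Ryr2* and *Stim1* had a padj of at most 0.05, where 9.7% of 16054 genes were lower at that padj.

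In OGD-TIA against CONTROL-TIA, limma called 0 of the 9 genes and 0 of 16242 genes in all, a background of 0%. The study, with DESeq2, reported both higher and lower genes in this comparison at the same thresholds. The 0 by limma on FPKM thus does not show that no gene changed. At an unadjusted p under 0.05, 2 of the 9 were lower (*Itpka* and *Ryr1*), where 7.92% of all genes were. Their median log2 fold change was -0.21, against 0.04 for all genes. *Itpka* was the 1 gene with groups apart, where 6.72% of all genes lay below. With isoforms weighted by length, *Ryr1*, *Ryr2*, *Itpka* and *Stim1* were apart, where 8.92% lay below, and none of the 9 had a padj of at most 0.05 (background 1.57%).

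**Figure D3:**
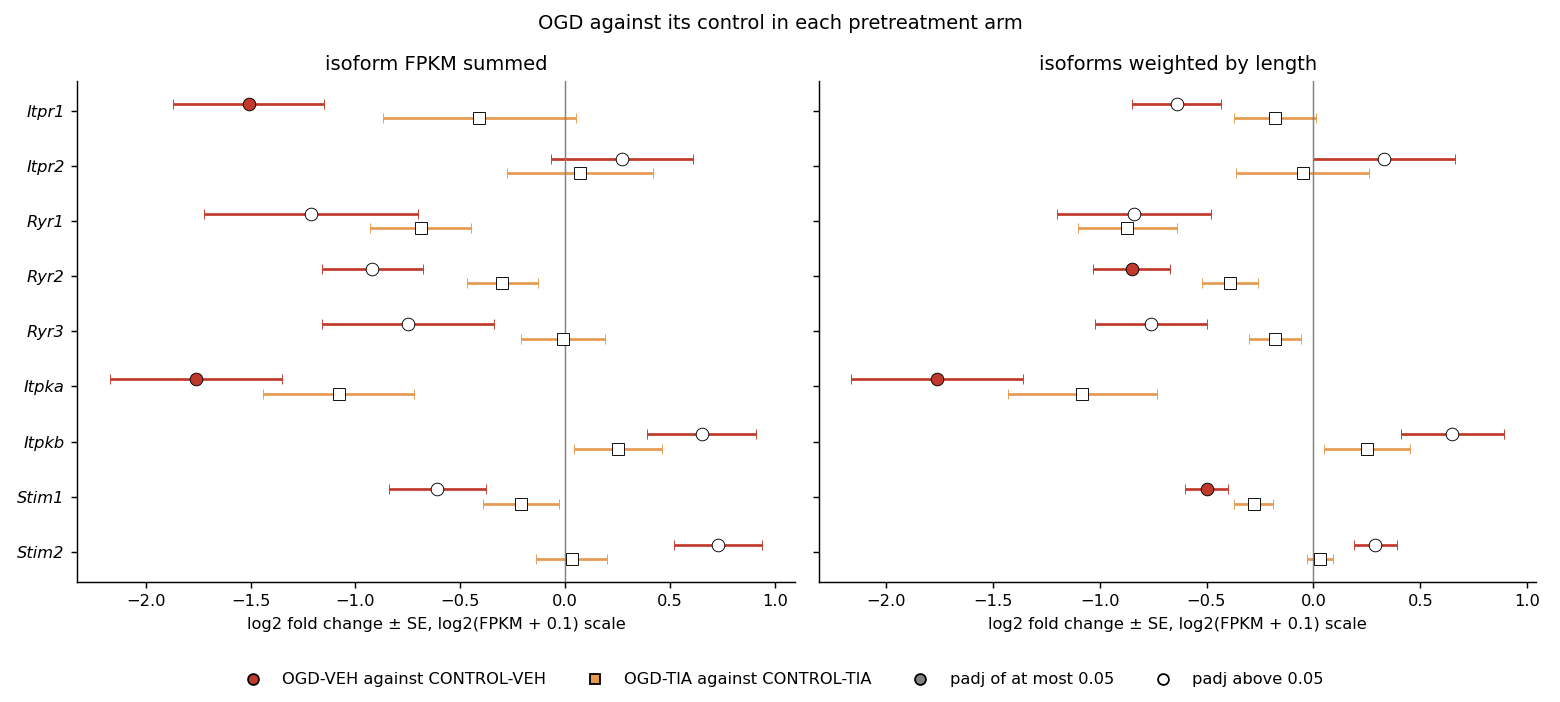
Log2 fold change ± SE (limma, 4 against 4 cultures) of the 9 tested genes after OGD in the vehicle arm (circles) and the TIA arm (squares), from summed FPKM (left) and with isoforms weighted by length (right). Filled symbols mark a padj of at most 0.05, which *Itpka* and *Itpr1* had on the left and *Ryr2*, *Itpka* and *Stim1* on the right, all in the vehicle arm.

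Over all 16 cultures, the OGD effect averaged over both pretreatments was fitted in one model. A padj of at most 0.05 was reached by 6 of the 9 genes, 4 lower and 2 higher, where 13.7% of 16313 genes were lower and 18.8% higher at that padj. *Itpka* fell by 1.42 on the log2 scale (SE 0.29, limma padj = 0.00395), *Ryr2* by 0.61 (SE 0.15, padj = 0.00978), *Ryr1* by 0.95 (SE 0.29, padj = 0.0233) and *Itpr1* by 0.96 (SE 0.31, padj = 0.0293). *Itpkb* rose by 0.45 ± 0.17 (padj = 0.0483) and *Stim2* by 0.38 ± 0.14 (padj = 0.0496). Both lay close to the threshold, as *Itpkb* had a padj of 0.0196 to 0.0959 over the alternatives, and *Stim2* was 0.09 ± 0.07 with protein-coding isoforms alone (padj = 0.33) or with those of 1000 bases or more (padj = 0.291). The 16 neuronal markers had a median of -0.57 in this fit, with 11 lower at that padj. *Stim1* (-0.41 ± 0.15, padj = 0.0516), *Ryr3* (-0.38 ± 0.24, padj = 0.237) and *Itpr2* (0.17 ± 0.25, padj = 0.619) did not pass.

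*Itpka* was the only DEG of the 9, where 4.8% of all genes were DEGs, and the only one whose 8 OGD cultures all lay below the 8 controls on the summed scale, as 2.42% of all genes did. With isoforms weighted by length, 8 of the 9 genes had a padj of at most 0.05, 6 lower and 2 higher, where 17.7% of 16002 genes were lower and 28.3% higher. *Stim1* then fell by 0.39 (SE 0.07, limma padj = 0.000766; -0.29 ± 0.16, padj = 0.147, with protein-coding isoforms alone), *Ryr3* by 0.47 (SE 0.15, padj = 0.021) and *Itpr1* by 0.41 (SE 0.15, padj = 0.041), and *Stim2* rose by 0.16 ± 0.06 (padj = 0.0296). On that scale *Ryr2*, *Itpka* and *Stim1* were below every control in all 8 OGD cultures, as 3.8% of all genes were.

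Tested one by one, 34 of the 76 isoforms had a mean of at least 0.5 FPKM, and 4 had a padj of at most 0.05 in the averaged OGD effect, all lower. The share of all isoforms at that padj was not computed, so this count has no background beside it. Itpka-201 was the 1 DEG among the 4 (-1.42 ± 0.30, limma padj = 0.0149), where 1.97% of 53201 isoforms were DEGs. The others were long protein-coding isoforms, Ryr2-202 (-0.65 ± 0.13, padj = 0.0108), Stim1-201 (-0.36 ± 0.09, padj = 0.024) and Ryr2-201 (-0.57 ± 0.17, padj = 0.0485). The full-length Itpr1-201 and Itpr1-205 changed by -0.21 ± 0.19 (padj = 0.531) and -0.36 ± 0.15 (padj = 0.164), against -3.70 ± 1.55 (padj = 0.157) for the short Itpr1-207. The median SE was 1.02 for the 12 isoforms under 1000 bases and 0.21 for the longer ones.

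**Figure D4:**
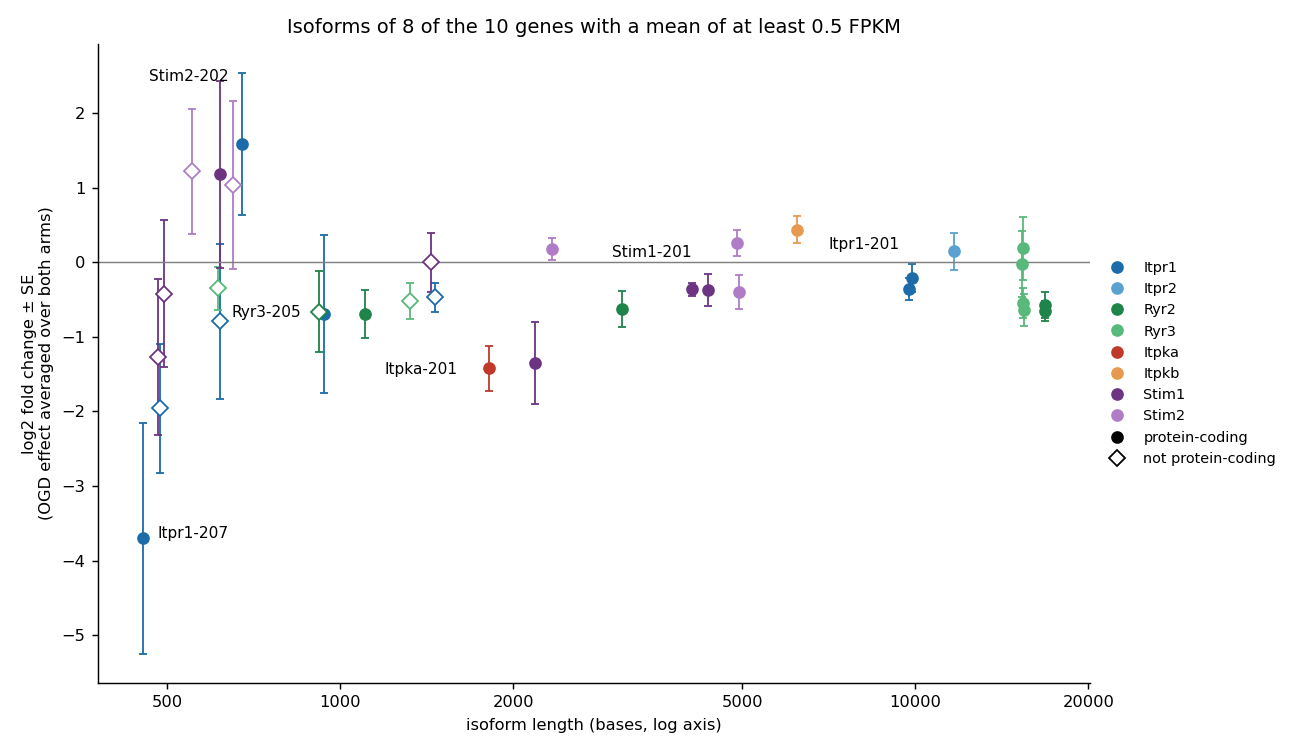
Log2 fold change ± SE of each of the 34 tested isoforms (OGD effect averaged over both pretreatments, 8 against 8 cultures) against isoform length in bases on a log axis, with protein-coding isoforms filled. Short isoforms such as Itpr1-207 (-3.70 ± 1.55) and Stim1-207 (1.18 ± 1.25) had the widest errors, and isoforms of 1000 bases or more lay between -1.42 and 0.44.

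To ask whether TIA changed the level of these genes, TIA and vehicle cultures were compared with and without OGD. In CONTROL-TIA against CONTROL-VEH, limma called 0 of the 9 genes and 0 of 16170 in all (a background of 0%), and 3.84% of all genes had an unadjusted p under 0.05. *Stim1* was the 1 member with such a p (-0.41 ± 0.15, padj = 0.999), and on the length-weighted scale it was -0.14. The other 8 lay between -0.21 and 0.37.

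In OGD-TIA against OGD-VEH, 0 of the 9 genes and 0 of 16351 in all were called by limma (a background of 0%), with 7.91% of all genes at an unadjusted p under 0.05. *Ryr3* was 14.5 to 26.4 summed FPKM in OGD-TIA and 5.25 to 22 in OGD-VEH (0.94 ± 0.42, padj = 0.551). *Ryr2* was 5.93 to 10 against 3.35 to 7.93 (0.65 ± 0.27, padj = 0.551), and *Itpr1* and *Itpka* were higher by 0.89 ± 0.50 and 0.65 ± 0.53 (padj = 0.551 and 0.591). *Ryr2* was the 1 member with an unadjusted p under 0.05. Of the 9 genes, 5 had a log2 fold change above 0, these and *Ryr1* (0.55 ± 0.44), and 4 below. The 4 were *Itpkb* (-0.36 ± 0.30), *Stim2* (-0.32 ± 0.19), *Itpr2* (-0.22 ± 0.42) and *Stim1* (-0.01 ± 0.25). With isoforms weighted by length, *Ryr3* was 0.68 ± 0.28, *Itpka* 0.65 ± 0.52, *Itpr1* 0.49 ± 0.27 and *Ryr2* 0.44 ± 0.20. *Ryr1* was under the minimum mean in that fit and was not tested. No member had groups apart, where 2.51% of all genes lay below and 1.3% above.

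The OGD effects with and without TIA were then compared directly. This interaction (the effect of OGD in TIA cultures less its effect in vehicle cultures) passed for 0 of the 9 genes and 0 of 16313 in all (limma, a background of 0%), and 6.06% of all genes had an unadjusted p under 0.05. *Stim2* had the smallest p of the members (-0.69 ± 0.28, padj = 0.722), which was -0.26 with isoforms weighted by length. The interaction was largest for *Itpr1*, at 1.11 ± 0.62 (padj = 0.722), and 0.46 ± 0.31 with isoforms weighted by length. For *Ryr3* it was 0.74 ± 0.48 (padj = 0.722), for *Itpka* 0.68 ± 0.58 (padj = 0.743) and for *Ryr2* 0.63 ± 0.31 (padj = 0.722). Of the 9 genes, 6 had an interaction above 0 and 3 below. A p that misses the threshold does not show that the OGD effect was alike in both arms.

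The genes around the members in the pathway were read from 8 lists. Of 140 such genes tested in the averaged OGD effect, 35 (25%) were lower and 22 (15.7%) higher at a padj of at most 0.05, next to 13.7 and 18.8% of all genes. Of the 35 lower, 14 came from the list of Gq-coupled receptors and G proteins. A list count below that is near those shares of all genes is not a result about that list. Of the 16 neuronal markers, 11 were lower in the same fit. In OGD-VEH against CONTROL-VEH, 12 of 139 were lower and 4 higher, next to 3.45 and 4.99% of all genes. Means below are summed FPKM, given for CONTROL-VEH and then OGD-VEH, and log2 fold changes are those of the averaged OGD effect by limma.

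Upstream of IP3, 14 of 25 tested Gq-coupled receptors and G proteins were lower and 5 higher, with a median log2 fold change of -0.45 against 0.08 for all genes. The lower ones included the neuronal receptors *Chrm1* (8.29 ± 1.47 to 3.32 ± 1.89, log2 fold change -1.11, padj = 0.00371) and *Htr2a* (1.28 ± 0.147 to 0.628 ± 0.179, -0.85, padj = 0.00141), and *Gnaq*, the Gq alpha subunit (102 ± 5.1 to 68.3 ± 3.78, -0.40, padj = 0.00401). The higher ones included the nucleotide receptor *P2ry2* (0.308 ± 0.0574 to 2.24 ± 1.22, 1.90, padj = 0.00272), the thrombin receptor *F2r* (16.8 ± 1.14 to 41.6 ± 17.5, 0.92, padj = 0.00471), the endothelin receptor *Ednrb* (42.5 ± 15.3 to 88.6 ± 47.1, 0.84, padj = 0.0214) and the adrenergic receptor *Adra1a* (0.99, padj = 0.0342). Of 13 phospholipases C, 3 were higher (*Plcd1*, *Plcd4* and *Plcb3*, log2 fold changes 0.55, 1.01 and 0.54) and 1 lower, *Plch2* (14.3 ± 2.12 to 5.93 ± 3.6, -0.96, padj = 0.008).

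Among 20 other enzymes of inositol phosphate metabolism, 3 were lower and none higher. They were *Itpk1*, which makes higher inositol phosphates (94 ± 11.2 to 52.5 ± 15.9, -0.74, padj = 0.00865), and the phosphatases *Inpp1* (-0.56, padj = 0.00954) and *Inpp4a* (-0.66, padj = 0.0494). Of 25 partners of the IP3 receptors, 5 were lower and 4 higher. The calcium buffer *Calb1* (14.7 ± 4.09 to 5.23 ± 4.02, -1.44, padj = 0.0165), the calcium-binding receptor inhibitor *Cabp1* (-0.60, padj = 0.0121), the scaffold *Homer1* (-0.46, padj = 0.0215) and the ankyrin *Ank2* (-0.23, padj = 0.00401) were lower. Higher were *Itpripl2*, a relative of an IP3 receptor-interacting protein (0.95, padj = 0.00933), the ER thioredoxin-family protein *Erp44* (0.39, padj = 0.022), *Erlin1*, which takes part in receptor degradation (0.25, padj = 0.0112), and the mitochondrial chaperone *Hspa9* (0.46, padj = 0.0419).

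Of 16 partners of the ryanodine receptors, 6 were lower and 1 higher, with a median of -0.22. The calmodulin genes *Calm2* and *Calm3* were lower (-0.57 and -0.50, padj = 0.00369 and 0.00559), as was the junctional protein *Jph4* (159 ± 14.3 to 85.8 ± 43, -0.72, padj = 0.0204), and the selenoprotein *Selenon* was higher (0.46, padj = 0.0115). Of 14 ORAI and TRPC channels and STIM partners, 5 were lower and 1 higher. *Orai2* was 22.4 ± 1.74 in CONTROL-VEH and 12.7 ± 3.22 in OGD-VEH (-0.70, padj = 0.00542), *Trpc5* 2.76 ± 0.223 and 0.901 ± 0.714 (-1.32, padj = 0.00317) and the septin gene *Sept4* 4.62 ± 1.5 and 1.55 ± 0.505 (-1.28, padj = 0.00158). *Trpc4* was lower by a smaller amount (-0.43, padj = 0.0103), and *Orai1* was higher (6.19 ± 0.534 to 8 ± 1.07, 0.25, padj = 0.048).

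The last lists hold proteins of the ER itself, and over all genes 18.8% were higher and 13.7% lower. Of 11 pumps and regulators, 5 were higher and 1 lower, the calcium pump *Atp2a2* (118 ± 13.1 to 97.3 ± 6.8, -0.30, padj = 0.01). The higher ones included the translocon genes *Sec61b* (141 ± 6.05 to 187 ± 10.9, 0.31, padj = 0.00107) and *Sec63* (0.44, padj = 0.0053) and the regulin gene *1810037I17Rik* (0.54, padj = 0.00899). Of 16 calcium-binding proteins of the ER lumen, 3 were higher, near the share of all genes, and none lower. The 3 were the disulfide isomerase *P4hb* (291 ± 34.2 to 449 ± 65.5, 0.45, padj = 0.00189), the chaperone *Hsp90b1* (136 ± 7.11 to 181 ± 23.1, 0.39, padj = 0.00196) and the calcium-binding *Calu* (0.47, padj = 0.0115).

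Of the members, 4 varied enough over the 16 cultures (SD of log2 of at least 0.5) to look for genes with a like profile, by the root mean square difference of centred log2 values over 16313 genes. Nearest to *Itpka* (SD 0.95) were *Epha10* (0.22), *Pcsk2* (0.25) and *Nell1* (0.25). For *Itpr1* (SD 0.85) they were *Wfs1* (0.36), *Trank1* (0.38) and *Inpp5j* (0.39), for *Ryr1* (SD 0.75) *B230216N24Rik* (0.34), *Ebp* (0.36) and *Greb1l* (0.38), and for *Ryr3* (SD 0.62) *Ccdc13* (0.23), *Gm37928* (0.23) and *Gm16485* (0.24). The cultures, their OGD status and their library scaling are shared by all of these profiles.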

How the data were processed

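Per the labels and methods, the authors had stranded mRNA libraries sequenced as 50-base single-end reads, mapped with STAR to GRCm38 with the Ensembl annotation, and had isoform expression estimated with eXpress. The deposited values are FPKM per isoform, scaled between libraries by TMM according to the name of the table. Of 135276 lines, 74 without an identifier (0.044 to 0.0594% of the summed FPKM) were left out. The other 135202 isoforms were summed by the gene symbol of the table, and 99.82% were found in GENCODE M21, which gave isoform types and positions. The depth was estimated from 3762 single-isoform genes of 1500 to 2500 bases and depends on the effective length assumed, so no counting intervals were given.

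Each comparison used log2(FPKM + 0.1), a minimum gene mean of 0.5 FPKM in the cultures compared, and limma 3.58.1 in R 4.3.3 (empirical Bayes with a trend), with Benjamini-Hochberg adjustment. The procedure was tested on simulated data. The authors used DESeq2, which needs counts and was not run on FPKM. With it the study reported more DEGs after OGD in each arm than limma called here. Alternatives were length-weighted isoforms, a pseudocount of 1 or 0.01, no minimum mean or one of 2 FPKM, array quality weights, scaling by median ratios, a robust empirical Bayes fit, 1 fit over all 16 cultures, and leaving out each culture. Protein-coding isoforms only and isoforms of at least 1000 bases only were added after the data were seen.

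The members and the gene lists were chosen with earlier results of these data known. All 10 members were named. From each pathway list, the genes with a padj of at most 0.05 in the averaged OGD effect could be named, at most 4 per list and direction by smallest p, and 3 of these are not reported here. Like profiles were sought for members with an SD of log2 of at least 0.5. Promoters are from RefSeq (GRCm38.p6) and tables were made with Python 3.11.15, pandas 2.3.3 and numpy 2.4.6.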

Additional observations from a re-analysis of the deposited data

Results flagged for a closer look

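In 4 of 40 sets of 4 cultures (10 genes in 4 groups), 1 culture stood apart from the other 3 by Dixon's criterion on summed FPKM, where chance gives about 1 in 20. *Itpr1* was 37.4 FPKM in OGD-VEH 9 and 11.4 to 13.4 in OGD-VEH 10 to 12. This culture also had the highest neuronal marker sum of its group, 3443 against 1634 to 2514 in the other 3. *Itpr3* was 0.143 FPKM in CONTROL-VEH 4 and 0.312 to 0.333 in the other CONTROL-VEH cultures, at an estimated 28 to 79 reads per culture over all 16 cultures. *Ryr3* was 14.5 FPKM in OGD-TIA 16 and 25 to 26.4 in OGD-TIA 13 to 15, and that culture had the lowest neuronal marker sum of its group, 2262 against 3493 to 3741. *Stim1* was 12.7 FPKM in OGD-TIA 14 and 20.3 to 21.6 in the other OGD-TIA cultures, but with isoforms weighted by length its value of 10 lay among the others (8.36 to 10.8).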

How the results depend on the processing

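The depth of each library was estimated and not measured, the 4 cultures of a group limit every p, and short isoforms carry few reads. No paired analysis was possible because the culture numbers run from 1 to 16 across the groups no number is shared, and the labels state no pairing.

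In OGD-VEH against CONTROL-VEH, the number of DEGs among the members went from 2 to 0 with no minimum mean, 4 with array quality weights (*Itpka*, *Itpr1*, *Ryr1* and *Ryr2*) and 1 with length-weighted isoforms (*Itpka*), and it was 0 to 4 when 1 culture was left out. This number was 3 with median-ratio scaling or protein-coding isoforms alone (*Itpka*, *Itpr1* and *Ryr2*). It was 3 with 1 fit over all 16 cultures (*Itpka*, *Itpr1* and *Ryr1*) and 2 with isoforms of 1000 bases or more (*Itpka* and *Ryr2*). In OGD-TIA against OGD-VEH it went from 0 to 1 with array quality weights (*Ryr3*). In the averaged OGD effect it went from 1 to 2 with a pseudocount of 0.01 (*Itpka* and *Ryr1*), to 3 with median-ratio scaling or array quality weights (*Itpka*, *Itpr1* and *Ryr1*), and was 1 to 3 when 1 culture was left out, being 3 without CONTROL-VEH 4, CONTROL-TIA 6 or OGD-VEH 9 and 2 without CONTROL-TIA 5, OGD-TIA 13, OGD-TIA 15 or OGD-TIA 16. Among the isoforms it went from 1 to 2 with array quality weights and was 1 to 2 when 1 culture was left out, with 2 without OGD-VEH 9. The share of all genes called under each alternative is not given here, so these counts are not results about the members alone. The causes were not tested.

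Of 1136 alternative values of single members, 49 changed sign, 27 of them on leaving out 1 culture, and 0 of the 49 passed a threshold. In OGD-TIA against CONTROL-TIA, *Itpr2* was -0.27 with array quality weights and -0.05 with length-weighted or protein-coding isoforms, *Ryr3* 0.13 with array quality weights, and *Stim2* -0.01 with median-ratio scaling and -0.02 with array quality weights. In CONTROL-TIA against CONTROL-VEH, *Itpr1* was 0.03 with length-weighted isoforms and 0.08 with isoforms of 1000 bases or more, *Itpr2* 0.05 and *Ryr1* -0.21 with array quality weights, *Ryr1* -0.01 with a pseudocount of 1, *Ryr2* -0.01 with length-weighted isoforms, and *Stim2* -0.03 with protein-coding isoforms and -0.03 with those of 1000 bases or more. In OGD-TIA against OGD-VEH, *Stim1* was 0.04 with median-ratio scaling, 0.04 with array quality weights, 0.08 with length-weighted, 0.17 with protein-coding and 0.09 with long isoforms. The interaction of *Ryr1* was -0.03 with length-weighted and -0.09 with protein-coding isoforms, and the averaged effect of *Itpr2* -0.04 with array quality weights. Leaving out 1 culture, *Itpr2* ranged from -0.03 to 0.45 in OGD-VEH against CONTROL-VEH, from -0.19 to 0.27 in OGD-TIA against CONTROL-TIA, from -0.14 to 0.10 in CONTROL-TIA against CONTROL-VEH, from -0.48 to 0.08 in OGD-TIA against OGD-VEH and from -0.46 to 0.10 in the interaction. In the same way, *Ryr3* ranged from -0.09 to 0.19 and *Stim2* from -0.06 to 0.18 in OGD-TIA against CONTROL-TIA, *Stim1* from -0.15 to 0.18 in OGD-TIA against OGD-VEH, and *Ryr1* from -0.27 to 0.30, *Ryr2* from -0.03 to 0.08 and *Itpka* from -0.13 to 0.08 in CONTROL-TIA against CONTROL-VEH.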
